A study of Mus musculus with 8 samples.

Results

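Creatine kinases, myoglobin and AMP deaminases belong to the machinery with which skeletal muscle holds its supply of ATP and oxygen steady, and several relatives of these genes serve other tissues. The 10 genes described here are the creatine kinases Ckm, Ckmt2 and Ckb, myoglobin (Mb), the AMP deaminases Ampd1, Ampd2 and Ampd3, and the creatine supply genes Gatm, Gamt and Slc6a8. They were taken by symbol: every probe set that the platform annotation assigns to 1 of these genes alone was used, which gave 14 of the 34945 probe sets that name a single gene (10 of 18193 genes). The samples were subcutaneous fat from 8 male mice, diabetic per the series title, with a labelled age of 8 weeks and 10 weeks of oral dosing on 5 days per week. The 4 mice of the supplemented group (numbers 5, 9, 11 and 13) were given 10 mg per kg of niacin-bound chromium (NBC), a complex of chromium and niacin, in water. The 4 placebo mice (numbers 6, 8, 10 and 14) were given water alone. Each mouse had 1 Affymetrix array with 1 signal per probe set on a linear scale, as computed by the authors with MAS5. Neither strain nor cause of diabetes is given in the sources used here.

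Creatine kinases move a phosphate group between ATP and creatine, so that phosphocreatine can buffer ATP where it is used quickly. Ckm is the cytosolic form of striated muscle, Ckmt2 the mitochondrial form of striated muscle, and Ckb the cytosolic form of brain and many other tissues. In thermogenic fat cells Ckb and Ckmt2 have been described as parts of a cycle that phosphorylates and dephosphorylates creatine and so turns over ATP. Gatm and Gamt catalyse the successive steps of creatine synthesis, and Slc6a8 carries creatine into cells. Myoglobin stores oxygen in muscle fibres. AMP deaminases convert AMP to IMP. Ampd1 is the form of skeletal muscle, Ampd2 is found in many tissues, and Ampd3 is known from red blood cells and other non-muscle cells.

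The arrays agreed on the tissue and differed in their muscle signal. Adipocyte genes were among the brightest signals, the hormone adiponectin (Adipoq) reaching 83885.5 to 103846 in NBC mice, with placebo mice at 85821 to 108996. Of 11 adipocyte markers listed, 10 were measured, and on the log2 scale 1 was higher and 9 were lower in NBC mice. Their median log2 difference was -0.072, and 0 were called. Lipe lay lower in NBC mice without overlap, as did 2.06% of all kept probe sets. The signals of 15 fast skeletal muscle marker genes, summed per mouse, were 165745, 21476, 178280 and 165443 for NBC mice 5, 9, 11 and 13, with the placebo mice between 8007 and 27952. NBC mouse 9 therefore stood with the placebo mice in this sum, below placebo mouse 10 (27952), which was the highest of its own group. The ratio of 3' to 5' signal of the Gapdh control probe sets, a sign of RNA integrity, was 1.47, 0.844, 1.28 and 1.11 for NBC mice 5, 9, 11 and 13, with the placebo mice between 0.924 and 1.04. For the Actb control probe sets it was 2.10, 1.51, 1.82 and 1.56 in the same NBC mice, with the placebo mice between 1.51 and 1.74. Spearman correlations between arrays lay between 0.941 and 0.975 within groups and between 0.945 and 0.968 across groups. In whole tissue, fewer cells of a type and less RNA per cell cannot be told apart.

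The promoters of the 3 creatine kinase genes are shown because the comparison between muscle and non-muscle forms turns on these genes. Each runs 5' to 3' on its gene's strand, from 250 bases before the start to 50 bases after it (RefSeq, GRCm38.p6). Capitals mark CANNTG, the E-box core that myogenic factors are known to bind, or TATAAA, each searched on both strands. The windows are chr7:19410844-19411143 (plus strand) for Ckm, chr13:91876836-91877135 (minus strand) for Ckmt2 and chr12:111672289-111672588 (minus strand) for Ckb.
Ckm: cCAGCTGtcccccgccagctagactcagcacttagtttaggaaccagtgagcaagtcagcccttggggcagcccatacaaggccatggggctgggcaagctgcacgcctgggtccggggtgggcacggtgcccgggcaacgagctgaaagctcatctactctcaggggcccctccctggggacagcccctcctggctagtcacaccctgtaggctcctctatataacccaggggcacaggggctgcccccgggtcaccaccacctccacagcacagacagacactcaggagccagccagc
Ckmt2: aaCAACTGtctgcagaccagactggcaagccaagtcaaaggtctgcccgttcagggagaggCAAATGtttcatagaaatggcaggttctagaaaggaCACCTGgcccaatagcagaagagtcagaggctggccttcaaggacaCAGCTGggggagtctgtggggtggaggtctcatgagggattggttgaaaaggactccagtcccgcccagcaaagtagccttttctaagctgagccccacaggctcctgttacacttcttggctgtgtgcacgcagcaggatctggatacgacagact
Ckb: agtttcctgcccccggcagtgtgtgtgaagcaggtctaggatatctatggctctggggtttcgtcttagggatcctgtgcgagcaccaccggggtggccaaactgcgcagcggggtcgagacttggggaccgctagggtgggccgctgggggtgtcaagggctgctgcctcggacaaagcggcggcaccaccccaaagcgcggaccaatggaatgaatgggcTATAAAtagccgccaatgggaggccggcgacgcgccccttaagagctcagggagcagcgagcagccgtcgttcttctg
The Ckm window held 1 CANNTG match, at position -249 from the start, and the Ckmt2 window held 4. The Ckb window held 0 CANNTG matches and 1 TATAAA match, at position -28. CANNTG was not confined to muscle forms among the 10 genes. The 3 Mb windows held 4, 3 and 2 matches. Both Ampd2 windows held 1 each, the 3 Ampd3 windows 1, 3 and 0, and those of Gatm and Gamt 1 each. Of all 32851 promoter windows of the same length, 72.3% held CANNTG and 13.6% held TATAAA, and the matches are a description of these letters. Of the 10 genes, 8 had a window, and Ampd1 and Slc6a8 are named only.

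Ckm, read by probe set 1417614_at, had the widest difference among the 14 probe sets. Its signal was 18305, 1081, 21901 and 15116 in NBC mice 5, 9, 11 and 13, against 279, 648, 1373 and 310.0 in placebo mice 6, 8, 10 and 14. The signal was high in 3 of the 4 NBC mice, while NBC mouse 9 lay below placebo mouse 10, so the groups overlapped. The group means were 14101 ± 9112 in NBC mice and 653 ± 509 in placebo mice (SD, n = 4 each), a ratio of 21.6. The log2 difference, NBC minus placebo on the scale log2(signal + 26), was 4.02 with a standard error of 0.93 (limma's moderated test, adjusted p = 0.653). The second Ckm probe set, 1444643_at, was far dimmer, with 429, 294, 483 and 875 in NBC mice 5, 9, 11 and 13, against 62.7, 382, 345 and 229 in placebo mice 6, 8, 10 and 14. It separated the groups less, with a log2 difference of 1.07 (SE 0.49), and it ranked NBC mouse 13 highest where the brighter one ranked NBC mouse 11 highest.

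**Figure D1:**
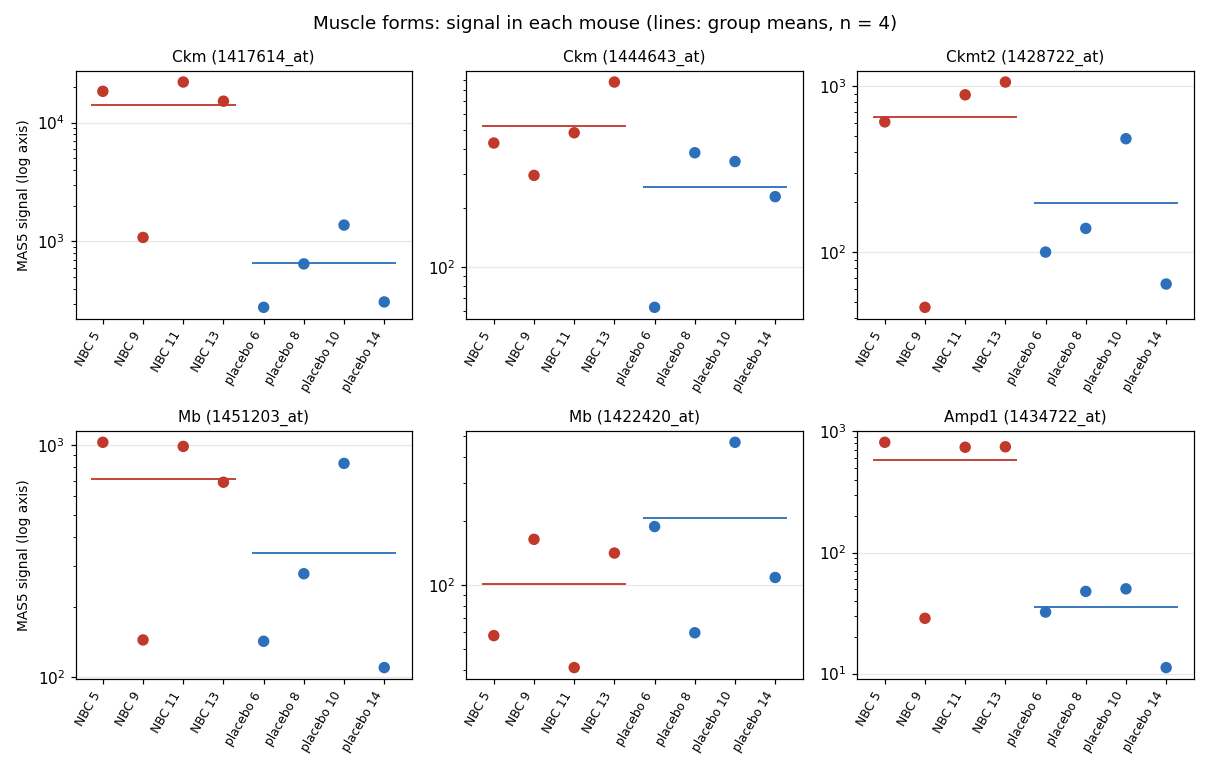
MAS5 signal (log axis) of the 6 probe sets of Ckm, Ckmt2, Mb and Ampd1 in each mouse, NBC in red and placebo in blue, with lines at the group means (n = 4 each). Ckm 1417614_at and Ampd1 separate NBC mice 5, 11 and 13 from every other mouse, NBC mouse 9 included, and placebo mouse 10 is near the high NBC mice for Mb 1451203_at but not for Ckm 1417614_at or Ampd1.

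Ampd1, the muscle AMP deaminase, showed the same mice high and low as Ckm, with all placebo mice low. Its only probe set, 1434722_at, read 814, 28.6, 741 and 748 in NBC mice 5, 9, 11 and 13, against 32.2, 47.7, 50.1 and 11.2 in placebo mice 6, 8, 10 and 14. NBC mouse 9 lay inside the placebo range, and the other 3 NBC mice lay within a narrow band. The means were 583 ± 371 in NBC mice and 35.3 ± 17.9 in placebo mice (SD, n = 4 each), and the log2 difference was 2.78 (SE 0.87). The placebo values lie near the 10th percentile of all signals on these arrays (26.5), where MAS5 values are noisy, and the log2 difference of so dim a transcript is understated by the added 26. Because of these low values the probe set fell under the filter on mean signal, and its test comes from the fit on all 45037 probe sets (adjusted p = 0.832).

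Ckmt2 and Mb had smaller mean differences, and placebo mouse 10 stood out in both. Ckmt2 (1428722_at), also under the filter, read 609.8, 46.3, 888 and 1061 in NBC mice 5, 9, 11 and 13, against 99.8, 139, 482.5 and 64.0 in placebo mice 6, 8, 10 and 14. Its log2 difference was 1.40 (SE 0.92, adjusted p = 0.919). NBC mouse 9 was the lowest of all 8 mice, and the difference was 2.29 without it and 1.91 without placebo mouse 10. The brighter Mb probe set, 1451203_at, read 1026, 144, 985 and 690.1 in NBC mice 5, 9, 11 and 13, against 142, 278, 832 and 109.7 in placebo mice 6, 8, 10 and 14. Placebo mouse 10 lay above NBC mouse 13 here, and the log2 difference was 1.11 (SE 0.71, adjusted p = 0.814). It was 1.72 without NBC mouse 9 and 1.65 without placebo mouse 10. The other Mb probe set, 1422420_at, went the other way, with 57.8, 164, 40.9 and 141 in NBC mice 5, 9, 11 and 13, against 188, 59.6, 468 and 108 in placebo mice 6, 8, 10 and 14 (log2 difference -0.69, SE 0.58). It was under the filter and did not follow the brighter probe set in NBC mice 5 and 11, so the 2 probe sets of Mb disagree in direction.

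Set against the highest mouse of each probe set, placebo mouse 10 had 6.27% of the highest Ckm signal, 6.15% of Ampd1, 45.5% of Ckmt2 and 81.1% of Mb (1451203_at). NBC mouse 9 had 4.93% of the highest Ckm signal, 3.51% of Ampd1, 4.36% of Ckmt2 and 14.1% of Mb. The muscle forms therefore did not keep 1 ratio to each other across mice: Mb and Ckmt2 were nearer to the high NBC mice in placebo mouse 10 than Ckm and Ampd1 were. For the 15 fast muscle marker genes the share of the highest mouse had a median of 10.9% in placebo mouse 10 and 7.82% in NBC mouse 9. Of the 12 slow and cardiac muscle genes listed, 5 were highest in placebo mouse 10 (Casq2, Myh7, Myl2, Nppa and Tnni1), and 3 were the lowest of all 8 mice there (Myl3, Tnni3 and Tnnt1). A further 4 were highest in placebo mouse 6. Of the 12, 8 were under the filter, among them all of those named here but Casq2 and Myl3. Myl3, a myosin light chain of slow and cardiac fibres, read 381, 258, 260.0 and 329.5 in NBC mice 5, 9, 11 and 13, against 488, 315.5, 129 and 479.5 in placebo mice 6, 8, 10 and 14. Placebo mouse 10 was thus the lowest mouse for Myl3 and the highest for Casq2. Casq2, a calcium store protein of slow and cardiac fibres, read 563, 327, 597 and 424 in NBC mice 5, 9, 11 and 13, against 495, 414, 795 and 465.5 in placebo mice 6, 8, 10 and 14. The summed signal of the 12 was 13943 to 16956 over NBC mice and 15408 to 16773 over placebo mice, with Atp2a2, a calcium pump found in many tissues, as its largest part. Of the brown and beige fat genes, 9 of 12 were measured, 3 above 0 and 6 below, and 0 were called. Cidea, a lipid droplet protein of brown fat, had the smallest p of that list and read 838, 862, 675 and 875 in NBC mice 5, 9, 11 and 13, against 2099, 1722, 1188 and 1673 in placebo mice 6, 8, 10 and 14 (log2 difference -0.996, SE 0.18, limma adjusted p = 0.653). Its groups did not overlap, where 2.06% of all kept probe sets were lower in NBC without overlap. Ucp1, the uncoupling protein of these cells, read 838, 1199, 796 and 2078 in NBC mice 5, 9, 11 and 13, against 3819, 3753.5, 1408 and 4060.5 in placebo mice 6, 8, 10 and 14, so placebo mouse 10 was the lowest of its group. The part of these cell types in the Mb and Ckmt2 signals was not tested.

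**Figure D2:**
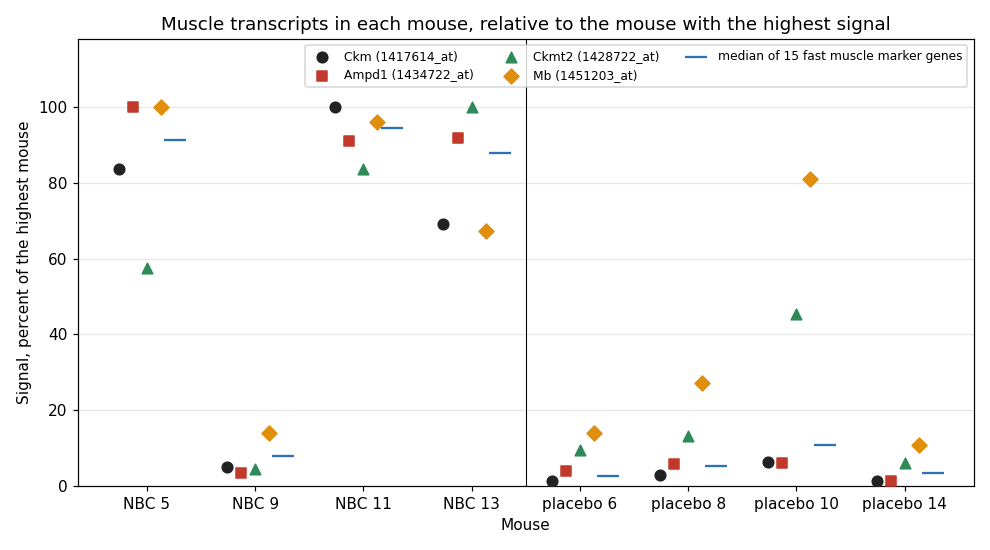
Signal of Ckm, Ampd1, Ckmt2 and Mb in each mouse as a percentage of the mouse with the highest signal of that probe set, with the median over 15 fast muscle marker genes as a bar. In placebo mouse 10 Mb stands at 81.1% and Ckmt2 at 45.5%, while Ckm and Ampd1 stand at 6.27% and 6.15%.

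No probe set of the 10 genes passed the threshold of 0.05 on the adjusted p over all probe sets tested. Of the 14 probe sets, 11 passed the filter on mean signal (a signal of 275) and 3 did not. Ckm 1444643_at averaged only 255 in placebo mice, so it passed through its NBC values. For Mb 1451203_at, also kept, placebo mice 6 and 14 lay under that signal (142 and 109.7). Passing the test were 0 of the 11 kept, where the share over all 22519 kept probe sets was also 0%, and 0 of the 3 in the fit on all 45037 (0%). At an unadjusted p under 0.05 in limma there were 2, Ckm 1417614_at and Ampd1, where 6.22% of the kept probe sets (3.28% higher in NBC) and 5.32% of all probe sets lay under it. Complete separation of the 4 NBC from the 4 placebo values occurred in 0 of the 14, against 3.85% of the kept and 3.34% of all probe sets (1.64% of all higher in NBC). The 6 probe sets of the muscle forms had a median log2 difference of 1.25 and the 4 of the forms of other tissues one of 0.19, beside a median of -0.010 over all kept probe sets. Without NBC mouse 9 limma called 18 of the 22519 kept probe sets (0.0799%, and 0.0755% higher in NBC), Ckm 1417614_at among them with a log2 difference of 5.03 (adjusted p = 0.0222). In the fit on all probe sets without that mouse, 0.0244% were called, Ampd1 among them with 3.75 (adjusted p = 0.0269). Leaving out any other single mouse left both uncalled. NBC mouse 9 was the lowest NBC mouse for both, so these calls depend on the values tested and are no separate support.

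**Figure D3:**
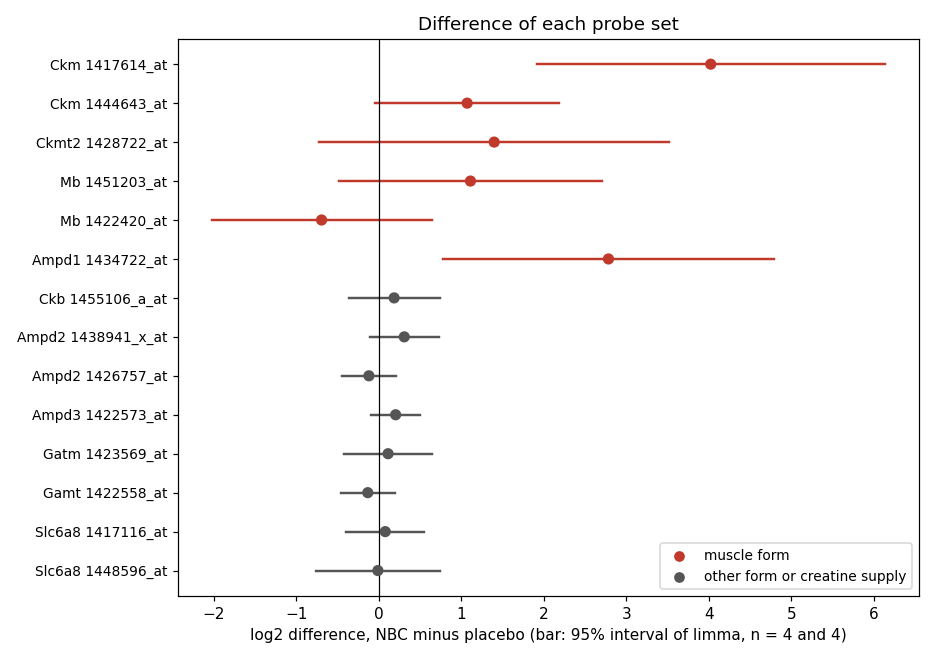
Log2 difference, NBC minus placebo, of each of the 14 probe sets, with bars for limma's 95% interval (n = 4 and 4), muscle forms in red and the others in grey. The intervals of Ckm 1417614_at (1.91 to 6.13) and Ampd1 (0.78 to 4.78) lie above 0 before adjustment, and the others reach across 0.

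Ckb, the non-muscle creatine kinase, was similar in both groups apart from 1 NBC mouse. Its probe set 1455106_a_at read 9356, 8131.5, 11416.5 and 18533 in NBC mice 5, 9, 11 and 13, against 10319.8, 9494, 8489 and 11560.3 in placebo mice 6, 8, 10 and 14. NBC mouse 13 was the highest, and NBC mice 5, 9 and 11 overlapped the placebo mice. The log2 difference was 0.19 (SE 0.24), with a 95% interval of -0.37 to 0.74. In the mice with high Ckm, Ckb was not uniformly high: NBC mouse 5 had 9356 and NBC mouse 11 had 11416.5.

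Ampd2, the widely expressed AMP deaminase, was read by a pair of probe sets that disagreed. The brighter one, 1438941_x_at, whose suffix marks probes that may also bind similar transcripts, read 5315, 4124.5, 7121 and 5413 in NBC mice 5, 9, 11 and 13, against 3732, 4183, 4286 and 5352 in placebo mice 6, 8, 10 and 14 (log2 difference 0.31, SE 0.18). The other, 1426757_at, read 866, 849, 727 and 687 in NBC mice 5, 9, 11 and 13, against 887, 927, 678 and 928 in placebo mice 6, 8, 10 and 14 (log2 difference -0.12, SE 0.14). Neither separated the groups, and their signs were opposite. Ampd3 (1422573_at) read 4629, 5383, 5087 and 4959.9 in NBC mice 5, 9, 11 and 13, against 4151.5, 3636, 4882.5 and 4833 in placebo mice 6, 8, 10 and 14. NBC mice 9, 11 and 13 lay above all placebo mice and NBC mouse 5 did not, with a log2 difference of 0.20 (SE 0.13, 95% interval -0.092 to 0.50).

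Whether a muscle form changed unequally to a form of other tissues was tested on the difference of their log2 values in each mouse. Ckm minus Ckb was -0.32 ± 1.81 in NBC mice and -4.15 ± 1.19 in placebo mice (SD, n = 4 each), so the groups differed by 3.84 (two-sided exact permutation p = 0.0571, adjusted over 4 pairs 0.152). Ampd1 minus Ampd2 differed between groups by 2.47 and Ampd1 minus Ampd3 by 2.58 (exact permutation p = 0.114 for each, adjusted 0.152). Ckmt2 minus Ckb differed by 1.21 (exact permutation p = 0.314, adjusted 0.314). The smallest p that 4 against 4 mice allow is 0.0286. None of the 4 pairs passed. For Ckm minus Ckb and both Ampd1 pairs, NBC mice 5, 11 and 13 lay above all placebo mice and NBC mouse 9 did not. For Ckmt2 minus Ckb, NBC mouse 13 (-4.09) also lay below placebo mouse 10 (-4.07).

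The genes that supply creatine did not separate the groups. Gatm (1423569_at), the first enzyme of creatine synthesis, read 547, 888, 813 and 1097 in NBC mice 5, 9, 11 and 13, against 527, 835, 761 and 941 in placebo mice 6, 8, 10 and 14 (log2 difference 0.11, SE 0.24). Gamt (1422558_at), the second enzyme, read 3461.5, 3696, 3415 and 2469.6 in NBC mice 5, 9, 11 and 13, against 3607, 3486, 3674.5 and 3396 in placebo mice 6, 8, 10 and 14 (log2 difference -0.13, SE 0.14). Gamt lay within a narrow band in 7 of the 8 mice and was low in NBC mouse 13. The creatine transporter Slc6a8 read 3623, 3542, 3851 and 6820.1 by its brighter probe set 1417116_at in NBC mice 5, 9, 11 and 13, against 4198, 4222, 3735 and 4100.2 in placebo mice 6, 8, 10 and 14. Without NBC mouse 13 the NBC values of this probe set reached only the lower end of the placebo range, and the log2 difference over all mice was 0.078 (SE 0.21, 95% interval -0.39 to 0.55). The second Slc6a8 probe set, 1448596_at, read 1045, 1727.5, 994 and 2702 in NBC mice 5, 9, 11 and 13, against 1626, 1489, 1018 and 2039 in placebo mice 6, 8, 10 and 14 (log2 difference -0.011, SE 0.33).

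NBC mouse 13 was thus the highest of the 8 mice for Ckb, Gatm and both Slc6a8 probe sets, and the lowest for Gamt. Over the 8 arrays the Pearson correlation of log2 values with Ckb was 0.92 for Slc6a8 1417116_at, 0.63 for Slc6a8 1448596_at, 0.49 for Gatm and -0.95 for Gamt, which is a description of 8 arrays in which 1 mouse carries much of the spread. The same mouse had the highest summed signal of 7 macrophage markers, 178853, where NBC mice 5, 9 and 11 had 108677 to 137025 and the placebo mice 87663 to 129102. All 7 of these genes had means above placebo on the log2 scale, where 47.9% of all kept probe sets did, and 1 of them (Csf1r, the receptor of a macrophage growth factor) did not overlap, where 1.79% of kept probe sets were higher in NBC without overlap. Cd68, a lysosomal protein of macrophages, read 10742, 16839, 11395 and 30777 in NBC mice 5, 9, 11 and 13, against 16944, 15820.5, 8705 and 15081 in placebo mice 6, 8, 10 and 14. Of the 7 markers, 6 were highest in NBC mouse 13. Cd163 went the other way, with 4082.5 in NBC mouse 13, the lowest of the 8 mice. The part of macrophages in the Ckb and Slc6a8 signals was not tested.

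**Figure D4:**
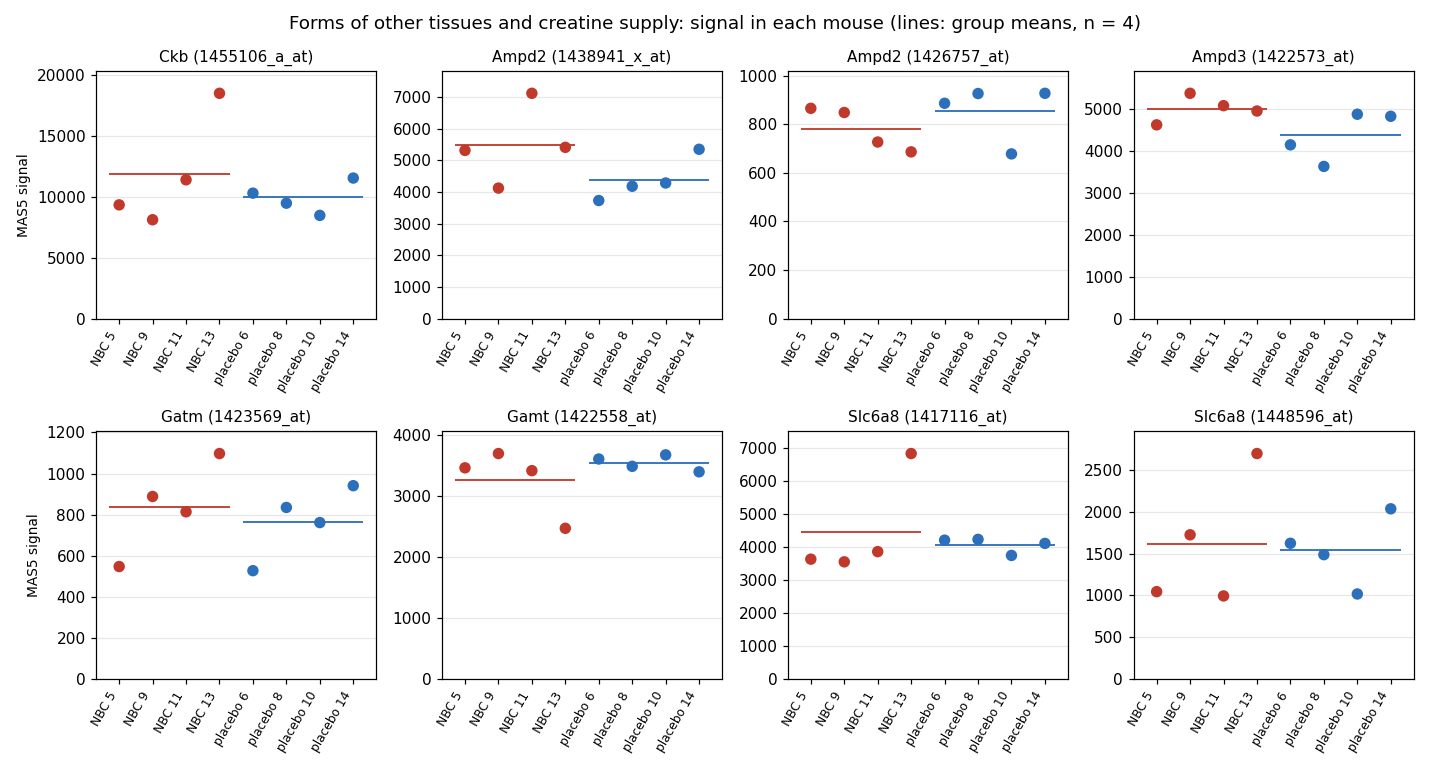
MAS5 signal (linear axis from 0) of the 8 probe sets of Ckb, Ampd2, Ampd3, Gatm, Gamt and Slc6a8 in each mouse, NBC in red and placebo in blue, with lines at the group means (n = 4 each). NBC mouse 13 is highest for Ckb (18533) and Slc6a8 1417116_at (6820.1) and lowest for Gamt (2469.6), and the other mice overlap between groups.

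The genes whose pattern over the 8 arrays was most like that of Ckm were mostly listed fast muscle markers (all but Tcap, a protein of the muscle Z-disc). Among 11661 other genes, each represented by its brightest kept probe set, the 8 with the highest Pearson correlation of log2 values were Tnnc2, Tnni2, Mylpf, Actn3, Eno3, Tcap, Myh4 and Atp2a1, with r between 0.986 and 0.998. Among the 10 genes themselves, r with Ckm 1417614_at was 0.97 for Ampd1, 0.87 for Ckmt2, 0.86 for Mb 1451203_at, 0.76 for Ckm 1444643_at and -0.42 for Mb 1422420_at. Among the forms of other tissues it was 0.74 for Ampd2 1438941_x_at, -0.58 for Ampd2 1426757_at, 0.40 for Ampd3 and 0.39 for Ckb. For the creatine supply genes it lay between -0.49 (Gamt) and 0.24 (Slc6a8 1417116_at). The order of r therefore did not follow the division into muscle and other forms throughout. The 8 arrays fall into 3 with high and 5 with low muscle signal, so these values mainly describe that split. The 8 genes most like Ckb were Kcnab2, Colec12, Ppp4r1, Prickle2, Anxa4, Slc41a2, Snx8 and Hsd17b11, with r between 0.944 and 0.988, each highest in NBC mouse 13. When Spearman's rho was used in place of Pearson's r, 4 of the 8 for Ckm and 2 of the 8 for Ckb remained among the top 8.

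Most fast muscle markers moved with Ckm and Ampd1 in these mice. Of 15 listed, 14 were measured and all 14 had a log2 difference above 0, with a median of 3.35 beside -0.010 over all kept probe sets. Myh2 was under the filter and differed by 0.094 (SE 0.54). The filter was on the mean over all arrays. Pygm, with 32.1 to 244 in placebo mice, passed it through the high NBC mice. Of the 14, 3 (Eno3, Pvalb and Casq1) did not overlap between the groups (1.79% of kept probe sets were higher in NBC without overlap), and 0 passed the adjusted threshold. Without NBC mouse 9, 8 of the 14 were called, where 0.0755% of kept probe sets were called higher in NBC. That mouse was the lowest NBC mouse for each of these 14 genes. The 8 calls therefore depend on leaving out a mouse by the values tested, and are no separate support. The muscle enolase Eno3 read 7866, 1281, 8609 and 7785 in NBC mice 5, 9, 11 and 13, against 691.5, 799, 1118 and 733 in placebo mice 6, 8, 10 and 14. Of 10 muscle regulators, 4 were measured, all 4 above 0, with a median of 0.16 and 0 called. Vgll2 had the smallest p of that list (log2 difference 0.63, SE 0.23, limma adjusted p = 0.776). The myogenic factors Myod1, Myog, Myf5 and Myf6 and the satellite cell gene Pax7 were all under the filter. The Gapdh 3' to 5' ratio was 1.47, 1.28 and 1.11 in NBC mice 5, 11 and 13, above every placebo mouse, and lowest in NBC mouse 9 (0.844). The Actb ratio did not repeat this split: NBC mouse 13 (1.56) lay inside the placebo range, and NBC mouse 9 and placebo mouse 8 were level (1.51). The part of the muscle regulators in the Ckm and Ampd1 signals, and that of these ratios, was not tested.

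Other genes of creatine and adenine nucleotide turnover showed small differences. In the list of the creatine shuttle and adenylate kinases, 9 of 13 genes were measured, 7 above 0 and 2 below, with a median of 0.063, and 0 passed the test. Ak1, the cytosolic adenylate kinase that is abundant in muscle, read 2109.7, 1112, 2878 and 2874 in NBC mice 5, 9, 11 and 13, against 1181, 1395, 1695 and 1157 in placebo mice 6, 8, 10 and 14 (log2 difference 0.64, SE 0.29, adjusted p = 0.778). NBC mice 5, 11 and 13 were above all placebo mice for Ak1 and NBC mouse 9 below them, the split seen for Ckm at a smaller size. Ak3, an adenylate kinase of the mitochondrial matrix, lay lower in NBC without overlap (log2 difference -0.21, SE 0.11, where 2.06% of kept probe sets were lower without overlap). Alpl, the phosphatase described as the partner of Ckb in creatine cycling, differed by 0.29 (SE 0.28, 95% interval -0.35 to 0.93). Ckmt1, the mitochondrial creatine kinase of non-muscle tissues, was under the filter.

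In the purine nucleotide cycle and AMP breakdown list, 12 of 17 genes were measured, 3 above 0 and 9 below, with a median of -0.095 and 0 called. Adssl1, the muscle form of adenylosuccinate synthetase, which acts in the cycle after Ampd1, did not share its pattern. It read 1258, 2436, 1953 and 3827 in NBC mice 5, 9, 11 and 13, against 2385, 1745, 1091 and 2533 in placebo mice 6, 8, 10 and 14 (log2 difference 0.25, SE 0.36). NBC mouse 5, which had the highest Ampd1 signal, was the lowest NBC mouse for Adssl1. Adsl, the enzyme that follows in the cycle, differed by -0.28 (SE 0.22). The smallest p of that list was that of the nucleotidase Nt5c3 (log2 difference -0.25, SE 0.12, limma adjusted p = 0.778). Of the enzymes that feed creatine synthesis with arginine, ornithine and methyl groups, 7 of 13 were measured, 2 above 0 and 5 below, with a median of -0.067 and 0 called.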

How the data were processed

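Values were the deposited signal intensities, made by the authors with MAS5 per the submitters' processing notes, 1 per probe set and array; no scanner, setting or batch is given in the sources used here. The 2% trimmed mean was 1500.01 on all 8 arrays, so no scaling was added. After 64 control probe sets were left out of 45101, log2(signal + 26) was taken and probe sets at or above the median mean log2 value were kept (22519). NBC was compared with placebo by limma 3.58.1 in R 4.3.3 (lmFit, eBayes, no covariate), with Benjamini-Hochberg adjustment at 0.05; SDs are of linear signals, SEs and 95% intervals of log2 differences. Probe sets under the filter were taken from the same fit on all 45037. The fit was tested on simulated data. Pairs of forms were tested by exact permutation (scipy 1.17.1). A gene was represented in lists by its brightest kept probe set, with the platform annotation's symbols (0 of 14 changed in RefSeq). Genes were named as members and as the 8 most like Ckm and Ckb. Of each list, up to 4 members with the smallest p or the member with its largest signal were named. Adipoq, Adssl1, Cd68, Cd163, Pygm, Prkag3, Casq1, the slow fibre genes highest in placebo mouse 10 and genes named as under the filter fall outside these rules. Those genes were chosen after their values were seen. Members and lists were chosen with earlier results of these data known. Listed genes without a single-gene probe set were not analysed here. Alternatives varied the pseudocount, filter, scaling, test and mice. The number of arrays limits the precision.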

Additional observations from a re-analysis of the deposited data

Results flagged for a closer look

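In groups of 4 mice, 1 mouse stood far from the other 3 in 4 of the 28 groups examined (14 probe sets in 2 groups), where chance alone gives about 1 in 20 groups. Every probe set reads the same mice, so the 28 are not independent and the count cannot be read as an excess. The distance was judged on the log2 scale by the gap to the nearest mouse over the range of the group. NBC mouse 9 was low for Ckm 1417614_at (1080.8, next 15116) and for Ampd1 1434722_at (28.6, next 741). NBC mouse 13 was high for Slc6a8 1417116_at (6820.1, next 3851). Placebo mouse 10 was low for Ampd2 1426757_at (678.4, next 887).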

How the results depend on the processing

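No paired analysis was possible because no mouse number occurs in both groups. The count of probe sets past the adjusted threshold was 0 in limma under each of the 8 other settings and ranged from 0 to 18 when 1 mouse was left out, with 18 without NBC mouse 9 (17 higher and 1 lower in NBC). At an unadjusted p under 0.05 limma gave 1400 probe sets, and 884 with the filter at the 75th percentile, 2126 with array weights, 2396 with no filter and 2549 without NBC mouse 9. Ckm 1417614_at kept its direction in 16 of 16 alternatives (3.60 to 5.03), as did Ampd1 (2.00 to 3.75), and both passed only without NBC mouse 9. Ckm minus Ckb ranged from 2.36, with all probe sets of a gene averaged, to 4.69, and neither it nor the other 3 pairs passed under the 5 alternatives with all 8 mice. With 1 mouse left out no pair could pass, since the smallest exact p for 3 against 4 mice is 0.0571. Without NBC mouse 9, Ckm minus Ckb and both Ampd1 pairs stood at that smallest p (adjusted 0.0762). Direction changed in 9 of 224 member values, all near 0: Ckb without NBC mouse 13 (-0.053 to 0.34 over the 8 mice left out), Gatm without NBC mouse 13 (-0.029) and without placebo mouse 6 (-0.051 to 0.30), Slc6a8 1417116_at without NBC mouse 13 (-0.14 to 0.17), and Slc6a8 1448596_at under quantile normalization (0.020) and without 1 mouse (-0.30 to 0.18 over the 8 mice left out). The cause was not tested. Signals near the 10th percentile limit what can be said of Ampd1. Mean signals under the filter limit what can be said of Ckmt2 and Mb 1422420_at.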

Other observations

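Genes of energy sensing and oxygen transport beside myoglobin showed no call. Of the 8 AMP-activated kinase genes, which encode the subunits of the cell's AMP sensor and its activating kinase, 3 lay above 0 and 5 below, with a median of -0.10 and 0 called. The largest difference was that of the regulatory subunit Prkag1, which averaged 3949 ± 555 in NBC mice and 5785 ± 1391 in placebo mice (SD, n = 4 each; log2 difference -0.52, SE 0.20, limma adjusted p = 0.777). The gamma subunit of skeletal muscle, Prkag3, read 1858, 969, 1804 and 839 in NBC mice 5, 9, 11 and 13, against 1400.2, 1285, 1796 and 1098 in placebo mice 6, 8, 10 and 14, so that NBC mouse 13, with a high Ckm signal, was the lowest. Of the oxygen binding and erythroid genes, 4 of 11 were measured, 1 above 0 and 3 below, with a median of -0.30 and 0 called. The smallest p of that list was that of the red cell anion exchanger Slc4a1 (log2 difference -0.55, SE 0.38, limma adjusted p = 0.828). Cytoglobin (Cygb), a globin of fibroblast-like cells, differed by 0.24 (SE 0.23).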
